A study of Arabidopsis thaliana with 27 samples.

Results

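The 10 Arabidopsis genes described here encode the enzymes of the mannose and L-galactose pathway, which makes ascorbate (vitamin C), and were taken by gene identifier from a list in pathway order, 10 of the 33602 genes in the deposited table. The samples are shoots of wild-type Col-0 plants that grew for 7 days on complete medium with iron and phosphate (+Fe+P) in continuous light on plates without sucrose. They were then moved to fresh +Fe+P, to a medium without added iron (−Fe+P), or to one without added iron and with a low rather than zero phosphate supply (−Fe−P), with shoots harvested 39, 52 or 76 h later. Each of the 9 groups of medium and time held 3 samples, 27 in all, and the study calls them biological replicates. Because no group here lacked phosphate alone, the effect of low phosphate can be read only in plants that also lacked iron. Plants on the 3 media are called controls, iron-deficient and under combined deficiency.

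Plants make most of their ascorbate by turning fructose 6-phosphate into mannose 6-phosphate and mannose 1-phosphate, joining the mannose to a nucleotide as GDP-mannose, and converting that into GDP-L-galactose. Galactose is then released as L-galactose 1-phosphate, its phosphate is removed, and the free sugar is oxidised to a lactone and finally to ascorbate at the inner mitochondrial membrane. The early steps also feed protein glycosylation and cell wall synthesis, whereas the steps from GDP-L-galactose phosphorylase onward lead to ascorbate, and in leaves that phosphorylase is regarded as the main control point. Ascorbate scavenges peroxide with ascorbate peroxidase, is a cofactor of many iron-dependent enzymes, and reduces ferric iron.

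The genes lie on all 5 chromosomes of the RefSeq TAIR10.1 assembly, whose annotation was used for positions only. They are PMI1 (AT3G02570, chr3:543346-545602, minus strand) and PMI2 (AT1G67070, chr1:25041833-25044659, plus strand), which encode phosphomannose isomerases, and PMM (AT2G45790, chr2:18855675-18858018, plus), the phosphomannomutase. VTC1 (AT2G39770, chr2:16588556-16591032, plus) encodes GDP-mannose pyrophosphorylase and GME (AT5G28840, chr5:10862016-10864946, minus) the GDP-mannose epimerase. GDP-L-galactose phosphorylase is encoded by VTC2 (AT4G26850, chr4:13498956-13501701, minus) and VTC5 (AT5G55120, chr5:22369007-22371867, plus). VTC4 (AT3G02870, chr3:627512-629925, minus) encodes the L-galactose 1-phosphate phosphatase, GalDH (AT4G33670, chr4:16169523-16171631, minus) the L-galactose dehydrogenase and GLDH (AT3G47930, chr3:17684322-17687661, plus) the mitochondrial L-galactono-1,4-lactone dehydrogenase. 

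The 250 bases before the annotated starts of VTC1, VTC4 and VTC2, the genes that rose most under combined deficiency, and of PMI1, which rose in both media without iron, are printed so that their letters can be set beside the values below. They were read from TAIR10.1, each on its gene's own strand from 5′ to 3′, and none of these 4 stretches overlaps another annotated gene. Capitals mark matches on either strand to P1BS (GNATATNC, the site bound by the phosphate starvation regulator PHR1), to the G-box (CACGTG) or to the evening element (AAAATATC). No matches overlap each other.
VTC1, chr2:16588306-16588555, plus strand: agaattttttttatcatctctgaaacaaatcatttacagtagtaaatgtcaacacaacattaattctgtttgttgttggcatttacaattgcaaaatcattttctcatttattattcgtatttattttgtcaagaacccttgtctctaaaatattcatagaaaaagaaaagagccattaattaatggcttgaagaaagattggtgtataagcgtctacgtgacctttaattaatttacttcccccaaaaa
VTC4, chr3:629926-630175, minus strand: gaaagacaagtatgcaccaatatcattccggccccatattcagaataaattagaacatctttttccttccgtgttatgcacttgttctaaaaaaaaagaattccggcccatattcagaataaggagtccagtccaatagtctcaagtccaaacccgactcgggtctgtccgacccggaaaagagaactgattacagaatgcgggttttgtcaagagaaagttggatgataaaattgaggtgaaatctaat
VTC2, chr4:13501702-13501951, minus strand: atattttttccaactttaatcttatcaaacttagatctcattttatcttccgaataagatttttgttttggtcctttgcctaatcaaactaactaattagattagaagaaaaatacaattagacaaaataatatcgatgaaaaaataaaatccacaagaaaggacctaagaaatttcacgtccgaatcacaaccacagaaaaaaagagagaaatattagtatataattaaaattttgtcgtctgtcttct
PMI1, chr3:545603-545852, minus strand: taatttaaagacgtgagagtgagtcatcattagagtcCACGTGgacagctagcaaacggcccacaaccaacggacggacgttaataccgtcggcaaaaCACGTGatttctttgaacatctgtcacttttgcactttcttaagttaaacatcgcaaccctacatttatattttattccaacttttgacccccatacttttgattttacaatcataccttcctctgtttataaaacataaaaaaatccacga

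In the window from 250 bases before to 50 bases after the start, 0 of the 10 genes held P1BS, against 6.25% of the windows of 27443 nuclear protein-coding genes, and 0 held the evening element, against 6.89%. The G-box was found in 1 of the 10, PMI1, which held 2 copies, against 7.68% of all windows. Within 1000 bases upstream, a longer window added after the values were seen, P1BS was in 2 of the 10, VTC1 and GME, against 20.3% of all genes. The match of VTC1 begins at position −698 from its start and is shown with 20 bases on each side.
VTC1, chr2:16587838-16587885, plus strand: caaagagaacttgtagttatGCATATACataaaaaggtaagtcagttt
The evening element was in 1 of the 10 in the longer window, VTC4, against 18.2%, and the G-box in 1, PMI1, against 14.8%. VTC2 held none of the 3 motifs in either window. These are matches of letters only.

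All 10 genes were measured in every sample and all passed the filter of a mean of at least 1 TPM (a gene's share of all transcripts, corrected for gene length and depth) that left 18910 genes in the test. VTC2 had the highest level, with a mean over all samples of 554 TPM, followed by GME with 306 TPM, VTC1 with 160 TPM, PMI1 with 96.6 TPM and PMM with 67.1 TPM. VTC4, VTC5 and GalDH had 59.6, 43.0 and 41.4 TPM, GLDH had 21.7 TPM and PMI2 had 3.69 TPM. In controls at 76 h, the levels of VTC4, VTC5 and GalDH could not be ordered, since their samples overlapped at 36.9 to 39.6, 36.1 to 39.8 and 35.8 to 43.3 TPM. Under combined deficiency at 76 h VTC4, with 109.6 to 119 TPM, lay above both and above PMI1, at 87.1 to 88.9 TPM. The group mean of VTC4 varied 4.06-fold between its highest and lowest group and that of VTC2 3.32-fold, whereas those of GME, VTC5 and GalDH varied 1.31-, 1.40- and 1.46-fold.

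**Figure D1:**
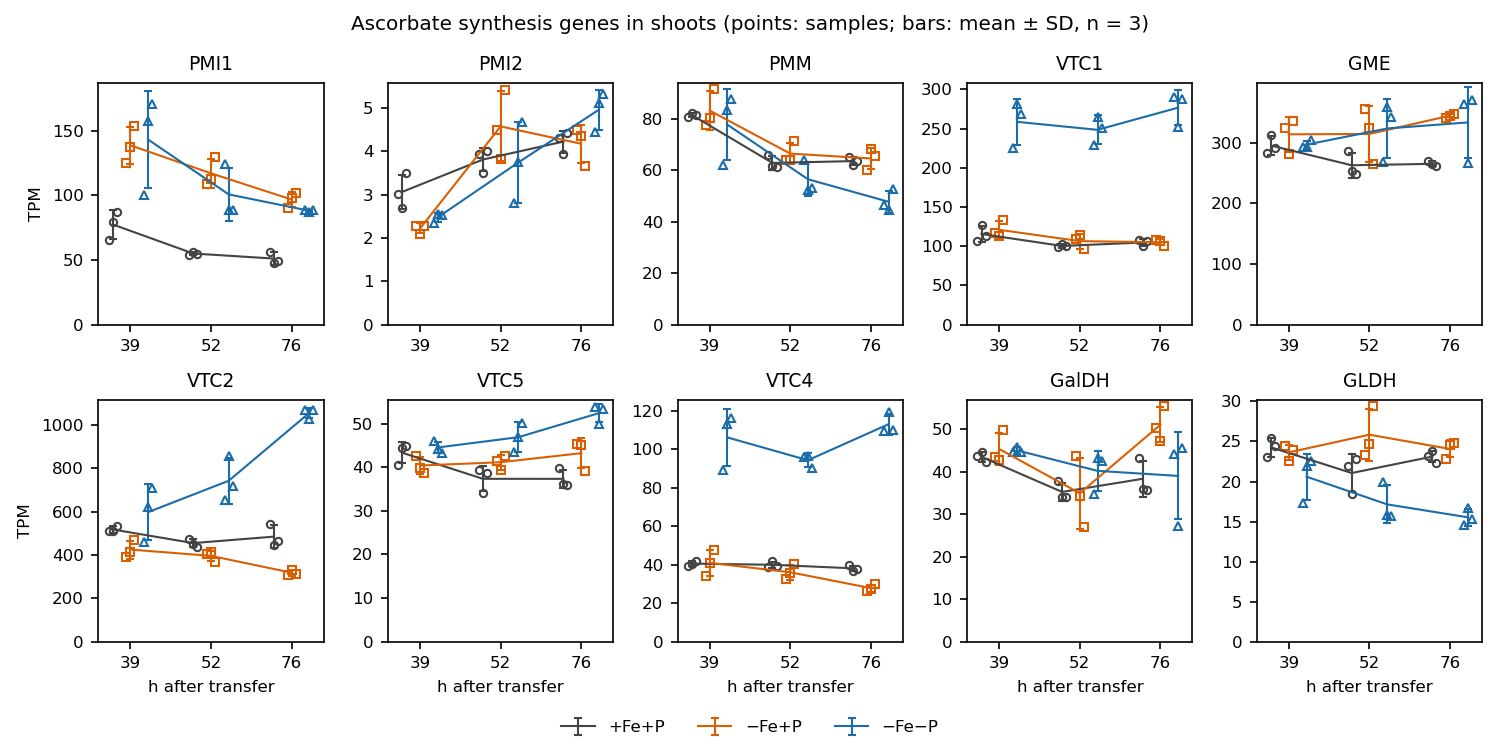
TPM (y axis, starting at 0) of each of the 10 genes against the time after transfer (x axis, the 3 times drawn evenly spaced), with a point for each sample and bars for the mean ± SD of 3 samples in the media +Fe+P (grey circles), −Fe+P (orange squares), −Fe−P (blue triangles). VTC1 and VTC4 lie above both other media at every time in −Fe−P, PMI1 lies above +Fe+P in both media without iron, and VTC2 parts into 3 levels by 76 h.

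Whole-table checks set the frame for these values. The iron deficiency regulator gene BHLH100 held 1.02 to 3.18 TPM in controls, 495 to 532 TPM under iron deficiency and 297 to 366 TPM under combined deficiency at 76 h, and the phosphate starvation RNA IPS1 was at 246 to 284 TPM under combined deficiency and below 1 TPM in the other samples of that time. BHLH100 was higher in controls of the earlier times, with 6.97, 9.94 and 20.1 TPM at 52 h and 26.2, 15.6 and 112 TPM at 39 h. The samples without iron at 39 h held 694 to 936 TPM. The iron storage gene FER1 held 289, 231 and 83.5 TPM in controls at 39 h, against 4.28 to 5.17 TPM without iron. Control replicate 3 of 39 h thus had the highest BHLH100 and the lowest FER1 of its group. The Rubisco gene RBCS1A was at 21118 to 29540 TPM in all samples and was lower under iron deficiency than in controls at 76 h (log2 −0.32, adjusted p = 0.00886). The antenna genes LHCB1.3 and LHCA1, also shoot markers, ranged from 3243 to 11219 and from 655 to 3265 TPM and were lower than in controls in both media without iron at 52 and 76 h. The part of these 3 genes in the changes below was not tested. Of the 5 root markers, EXPA7, COBL9, CASP1 and PRX57 did not exceed 6.45 TPM, and PYK10 was at 352 to 638 TPM in every group. Of the 3 that were tested, CASP1 and PRX57 were higher under combined deficiency than under iron deficiency at 76 h (2.58 to 5.16 against 0.871 to 1.20 TPM, and 3.07 to 6.45 against 1.53 to 2.16 TPM) and PYK10 was lower under iron deficiency than in controls (log2 −0.50, adjusted p = 0.0222). PRX57 was lower under combined deficiency than in controls at 52 h (log2 −1.19, adjusted p = 0.0218). Their part in the changes below was not tested. In shoot tissue as a whole, fewer cells of a type and less RNA per cell cannot be told apart. Replicate 1 of combined deficiency at 39 h stood apart, with 671 genes at least 2-fold from the log2 mean of its mates. Every other sample had 39 to 229. It lay below both mates for 7 of the 10 genes and above both for 1, and several results at 39 h under combined deficiency are also given without it.

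Differences between groups were tested with limma on log2(TPM + 0.5) over all 18910 genes, where passing meant a p under 0.05 after Benjamini-Hochberg adjustment, and a gene was called up- or downregulated when it passed and changed at least 2-fold. TPM are shares of a total, and the median log2 change of all genes against controls was 0.16 and 0.11 under iron deficiency and 0.11 and 0.10 under combined deficiency at 52 and 76 h, but −0.01 to −0.00 and −0.01 to −0.02 when samples were scaled by the median of ratios. No passing change of the 10 genes reversed its direction under any setting tried.

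The first comparison asked what iron deficiency alone does. Under iron deficiency, PMI1 was the only one of the 10 genes that rose at all 3 times, and VTC2 and VTC4 had fallen by 76 h. At 39 h 1 of the 10 was higher and 0 were lower by limma (2 lower at an unadjusted p under 0.05), against 3.43% of all tested genes higher and 2.45% lower. At 52 h 2 were higher and 0 lower (0 at an unadjusted p), against 28.5% and 3.57%, and 1 was upregulated at least 2-fold, against 2.78%. At 76 h 4 were higher and 2 lower, against 29.5% and 9.43%. The median log2 change of the 10 genes was 0.01, 0.11 and 0.04 at the 3 times.

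The second comparison asked what the combined deficiency does. Under combined deficiency, VTC1 and VTC4 were upregulated more than 2-fold from 39 h onward, VTC2 followed with a rise that grew with time, and GLDH and PMM were lower by 76 h. At 39 h 3 of the 10 were higher and 0 lower (1 lower at an unadjusted p), against 10.8% of all tested genes higher and 5.18% lower. At 52 h 5 were higher and 1 lower, against 28.8% and 11.6%. At 76 h 6 were higher and 2 lower, against 33.7% and 21.9%. Upregulated at least 2-fold were 2, 2 and 3 of the 10, against 1.45%, 4.45% and 6.34% of all tested genes. The median log2 change of the 10 genes was 0.05, 0.31 and 0.40 at the 3 times.

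The direct comparison of combined deficiency with iron deficiency asked what low phosphate changes in plants that lack iron. There 3, 3 and 4 of the 10 genes were higher at 39, 52 and 76 h, against 2.87%, 9.77% and 22.5% of all tested genes. At the same times 0, 1 and 3 were lower (0 at an unadjusted p at 39 h), against 2.07%, 17.4% and 28.8%. Upregulated at least 2-fold were 2, 2 and 3 of the 10, against 0.746%, 1.21% and 4% of all genes. VTC1 and VTC4 made up the 2 at 39 and 52 h and were joined by VTC2 at 76 h. These 3 comparisons share samples, so they are not independent of each other.

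**Figure D2:**
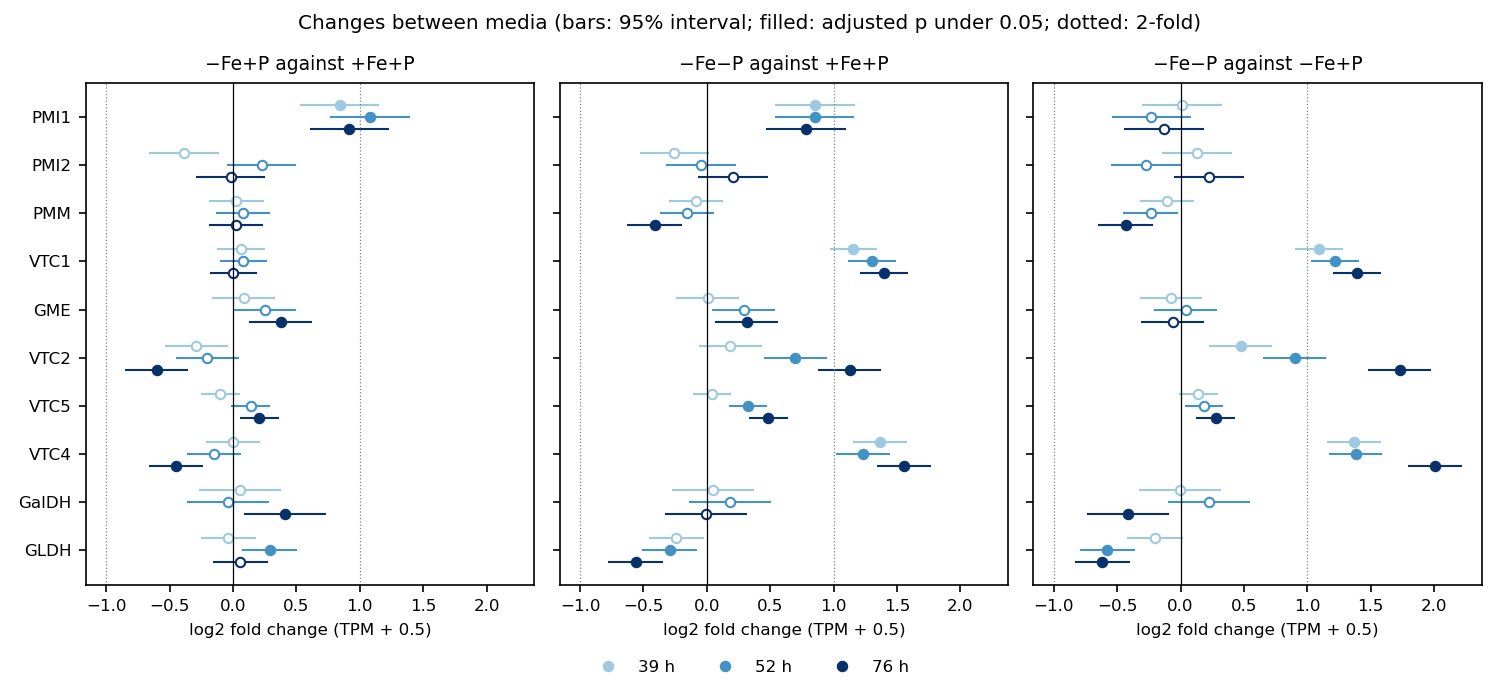
Fitted log2 fold change (x axis, TPM + 0.5) of each of the 10 genes (y axis, pathway order from top to bottom) in the 3 comparisons of media at 39, 52 and 76 h (light to dark blue). Bars are unadjusted 95% intervals, filled points passed an adjusted p of 0.05 and dotted lines mark a 2-fold change. VTC1 and VTC4 lie beyond the 2-fold line at all times in both panels of −Fe−P, and PMI1 lies near 0 in the comparison of −Fe−P with −Fe+P.

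Phosphomannose isomerase brings carbon from fructose 6-phosphate into the pathway. PMI1 held 65.7, 79.5 and 87.5 TPM in controls, 125, 138 and 154 TPM under iron deficiency, and 101, 158 and 171 TPM under combined deficiency at 39 h. At 52 h these values were 54.0, 56.0 and 55.0 TPM, 109, 113 and 129.9 TPM, and 125, 88.9 and 89.1 TPM. Every sample without iron lay above every control sample of its time, and so did those of 76 h, with 47.4 to 56.4 TPM in controls, 90.5 to 102 TPM under iron deficiency and 87.1 to 88.9 TPM under combined deficiency. Under iron deficiency the log2 fold change of PMI1 was 0.84, 1.08 and 0.92 (standard error 0.15, adjusted p = 9.4e-04, 1.8e-05 and 5.2e-05). Under combined deficiency it was 0.85, 0.85 and 0.78 (adjusted p = 3.7e-04, 1.2e-04 and 1.5e-04). Between the 2 media without iron PMI1 differed by 0.01, −0.23 and −0.13 (unadjusted 95% intervals −0.30 to 0.33, −0.54 to 0.08 and −0.45 to 0.18), and no time passed. The first of these was 0.25 without replicate 1 of combined deficiency (adjusted p = 0.267). Scaled by the median of ratios, the 2-fold rise at 52 h under iron deficiency became 0.91, which passed but was under 2-fold. The 39 h value under combined deficiency was 1.09 without replicate 1 of that group, and it missed the threshold in a fit of only its 6 samples (adjusted p = 0.0534).

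PMI2 was low in every group, with 2.08 to 5.42 TPM and 124 to 326 reads a sample as recovered from the values, and no comparison of media passed for it. Under iron deficiency at 39 h it held 2.28, 2.08 and 2.28 TPM against 3.01, 2.69 and 3.49 TPM in controls. These samples did not overlap, yet the log2 difference of −0.39 had an adjusted p of 0.0894, and 0.048 when scaled by the median of ratios. PMI1 and PMI2 are 66.1% identical over 1297 aligned coding bases and share no identical stretch longer than 21 bases. The ratio of PMI1 to PMI2 was 25.5 ± 3.83 in controls, 62.8 ± 6.87 under iron deficiency and 57.6 ± 13.0 under combined deficiency at 39 h (SD, n = 3). By 76 h it was 12.1 ± 0.969, 23.5 ± 3.90 and 17.9 ± 1.77. PMI1 was thus the more abundant transcript in every group.

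PMM, the phosphomannomutase that moves the phosphate of mannose 6-phosphate, varied less. At 76 h it held 65.0, 61.9 and 63.8 TPM in controls, 60.1, 68.1 and 65.6 TPM under iron deficiency, and 46.3, 44.4 and 52.5 TPM under combined deficiency. The combined-deficiency samples lay below all others of that time. PMM was lower under combined deficiency by −0.41 than in controls (log2, standard error 0.10, adjusted p = 0.00181) and by −0.43 than under iron deficiency (adjusted p = 0.00128). Against controls its log2 difference under combined deficiency was −0.08 at 39 h (0.07 without combined-deficiency replicate 1) and −0.16 at 52 h, and neither passed, although the latter was −0.29 with an adjusted p of 0.00915 under the median of ratios. Under iron deficiency PMM differed from controls by 0.03, 0.08 and 0.02, none of which passed, and by −0.02, −0.10 and −0.10 under the median of ratios, where none passed either.

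VTC1 makes GDP-mannose, the donor for glycosylation and cell wall polymers as well as the precursor of ascorbate. At 39 h it held 107, 127 and 113 TPM in controls, 116, 113 and 133 TPM under iron deficiency, and 226, 282 and 268 TPM under combined deficiency. At 52 h the values were 98.4, 103 and 99.8 TPM, 109, 114 and 96.0 TPM, and 229, 265 and 251 TPM. At 76 h they were 108, 99.6 and 106 TPM, 108, 107 and 100.3 TPM, and 291, 252 and 288 TPM. At every time the 3 combined-deficiency samples lay far above the 6 samples with phosphate, which overlapped each other. VTC1 rose under combined deficiency against controls 2.23-, 2.47- and 2.63-fold (log2 standard error 0.09, adjusted p = 2.4e-09, 2.2e-10 and 3.2e-11). Against iron deficiency the log2 difference was 1.09, 1.22 and 1.39 (adjusted p = 1.5e-08, 1.2e-09 and 2.9e-11). Under iron deficiency the change was 0.06, 0.08 and 0.00, and 0.02, −0.09 and −0.12 under the median of ratios, and no time passed in either. Without replicate 1 of combined deficiency at 39 h, the changes of 39 h were 1.25 and 1.19.

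GME turns GDP-mannose into GDP-L-galactose. At 76 h it held 269.8, 266 and 261 TPM in controls, 342, 345 and 348 TPM under iron deficiency, and 365, 266 and 370.5 TPM under combined deficiency. The iron-deficient samples lay above all of the controls, whereas replicate 2 of combined deficiency lay among them. The log2 change was 0.38 under iron deficiency (standard error 0.12, adjusted p = 0.0155) and 0.31 under combined deficiency (adjusted p = 0.0299). Under the median of ratios these were 0.25 and 0.18, and neither passed (adjusted p = 0.0769 and 0.16). The change under combined deficiency also missed the threshold without any one of control replicates 1, 2 and 3 and combined-deficiency replicates 1 and 3 of 76 h (adjusted p = 0.0536, 0.0626, 0.071, 0.132 and 0.148), and in a fit of its 6 samples alone (0.0704). At 39 and 52 h GME passed in no comparison of media, and at 52 h under combined deficiency it had 0.29 with an adjusted p of 0.0566. That value passed with nuclear genes only (0.0257) and without control replicate 1 or combined-deficiency replicate 1 of 52 h (0.0415 and 0.00838), and the change of 52 h under iron deficiency passed without iron-deficient replicate 3 (0.37, adjusted p = 0.0324).

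VTC2, which encodes the main GDP-L-galactose phosphorylase of leaves, was the most abundant transcript of the pathway and moved in opposite directions in the 2 media without iron. At 39 h it held 509, 509 and 535 TPM in controls, 390.2, 412 and 471 TPM under iron deficiency, and 459, 623 and 711 TPM under combined deficiency. At 52 h the values were 475, 450.2 and 439 TPM, 406, 412 and 369 TPM, and 652, 858 and 716 TPM. At 76 h they were 543, 443 and 466 TPM, 307, 333 and 314 TPM, and 1069.9, 1029 and 1067 TPM. At 52 and 76 h the 3 media did not overlap in any pair, with combined deficiency highest and iron deficiency lowest, while at 39 h the combined-deficiency samples overlapped both other media.

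Against controls, VTC2 changed under combined deficiency by 0.18, 0.70 and 1.13 on the log2 scale (standard error 0.12, adjusted p = 0.322, 7.9e-05 and 6.6e-08). Under iron deficiency it had −0.29 and −0.20 at 39 and 52 h, which did not pass (adjusted p = 0.167 and 0.204), and fell by 0.60 at 76 h (adjusted p = 3.8e-04). Directly, VTC2 was higher under combined deficiency than under iron deficiency by 0.47, 0.90 and 1.73 (adjusted p = 0.022, 4.6e-06 and 6.8e-11). Without replicate 1 of combined deficiency at 39 h, the first change against controls was 0.36 and passed (adjusted p = 0.0202), and that against iron deficiency was 0.65. The difference of 39 h from iron deficiency no longer passed without iron-deficient replicate 1 or 2 or combined-deficiency replicate 2 or 3 (adjusted p = 0.108, 0.065, 0.0929 and 0.124) and had 0.296 in a fit of its 6 samples. Under the median of ratios the rise of 76 h was 0.998, just under 2-fold, and the fall under iron deficiency was −0.38 at 52 h, which passed (adjusted p = 0.0115), and −0.73 at 76 h.

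VTC5 encodes the second GDP-L-galactose phosphorylase and was much lower than VTC2. At 76 h it held 39.8, 36.2 and 36.1 TPM in controls, 45.3, 45.2 and 39.2 TPM under iron deficiency, and 54.0, 50.1 and 53.3 TPM under combined deficiency. The combined-deficiency samples lay above the other 6, which overlapped. VTC5 rose under combined deficiency against controls by 0.33 at 52 h and 0.48 at 76 h (log2, standard error 0.07, adjusted p = 0.00123 and 8.5e-06), after 0.04 at 39 h. Under the median of ratios these 2 rises were 0.20 and 0.36 and passed (adjusted p = 0.041 and 0.000368). Under iron deficiency it rose by 0.21 at 76 h (adjusted p = 0.0294), a change that was 0.08 under the median of ratios (adjusted p = 0.416) and did not pass without control replicate 2 or 3 or iron-deficient replicate 1 or 2 (adjusted p = 0.0988, 0.103, 0.111 and 0.114). The direct difference of combined deficiency from iron deficiency was 0.14, 0.18 and 0.28 at 39, 52 and 76 h (adjusted p = 0.35, 0.0661 and 0.00314). That of 52 h passed under the median of ratios (0.23, adjusted p = 0.0231) and with nuclear genes only (0.0402). It also passed without combined-deficiency replicate 1 of 52 h (0.025).

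VTC2 and VTC5 are 78.1% identical over 1258 aligned coding bases, with a longest identical stretch of 35 bases, and how reads common to both were counted is not given in the sources used here. The ratio of VTC2 to VTC5 was 11.9 ± 0.555, 12.2 ± 0.958 and 12.9 ± 0.706 in controls at 39, 52 and 76 h (SD, n = 3). Under iron deficiency it was 10.5 ± 1.52, 9.63 ± 0.919 and 7.38 ± 0.610. Under combined deficiency it was 13.5 ± 3.25, 15.8 ± 2.10 and 20.1 ± 0.379. The ratios of the 3 media overlapped at 39 h and were apart at 76 h, when they spanned 12.2 to 13.6, 6.78 to 7.996 and 19.8 to 20.6.

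**Figure D3:**
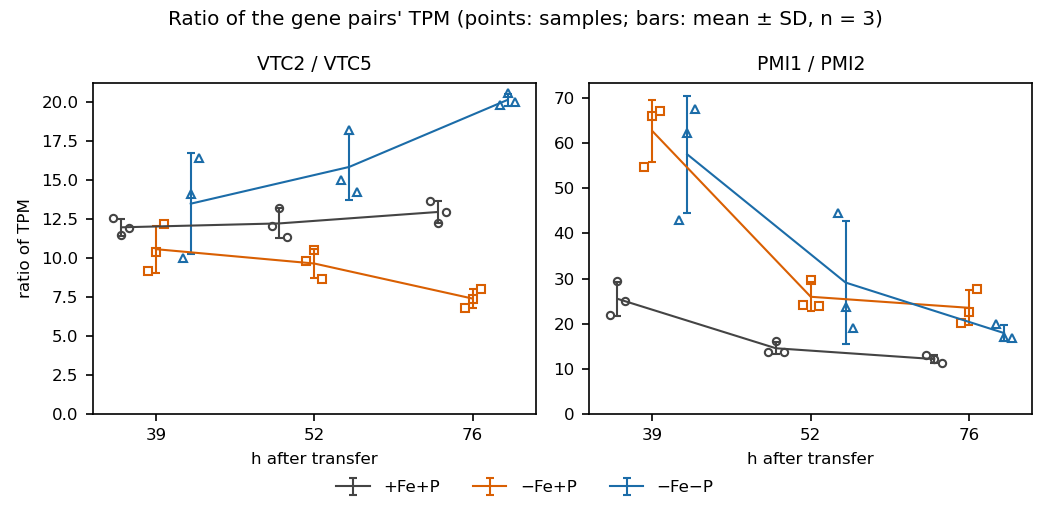
Ratio of TPM (y axis, starting at 0) of VTC2 to VTC5 (left) and of PMI1 to PMI2 (right) in each sample against time after transfer (3 times drawn evenly spaced), with bars for the mean ± SD of 3 samples in each medium. The VTC2 to VTC5 ratio at 76 h is 12.9 in +Fe+P, lower at 7.38 in −Fe+P and higher at 20.1 in −Fe−P, and the PMI1 to PMI2 ratio is highest at 39 h in both media without iron.

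VTC4 removes the phosphate from L-galactose 1-phosphate, and its enzyme also acts on myo-inositol phosphate. At 39 h it held 39.5, 40.2 and 41.9 TPM in controls, 34.3, 40.7 and 47.8 TPM under iron deficiency, and 89.0, 113 and 116 TPM under combined deficiency. At 52 h the values were 38.6, 41.8 and 39.4 TPM, 32.5, 35.4 and 40.3 TPM, and 96.2, 96.6 and 90.1 TPM. At 76 h they were 39.6, 36.9 and 37.8 TPM, 26.3, 27.4 and 29.8 TPM, and 109.6, 119 and 110.1 TPM. The combined-deficiency samples were above all others at each time, and at 76 h the iron-deficient samples were below all of the controls as well.

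Against controls, VTC4 rose under combined deficiency by 1.37, 1.23 and 1.56 on the log2 scale (standard error 0.10, adjusted p = 1.1e-09, 4.1e-09 and 3.7e-11). Under iron deficiency it had 0.00 and −0.15 at 39 and 52 h, which did not pass, and fell by 0.45 at 76 h (adjusted p = 0.00137). VTC4 was 4.01-fold higher under combined deficiency than under iron deficiency at 76 h (adjusted p = 5.1e-13), after 1.37 and 1.38 on the log2 scale at 39 and 52 h (adjusted p = 2.4e-09 and 1.1e-09). Without replicate 1 of combined deficiency at 39 h the change of 39 h was 1.49 against controls and against iron deficiency. Under the median of ratios the value of 52 h under iron deficiency was −0.32 and passed (adjusted p = 0.0197).

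GalDH oxidises free L-galactose with NAD. At 76 h it held 43.3, 36.0 and 35.8 TPM in controls, 50.4, 47.3 and 55.6 TPM under iron deficiency, and 44.3, 27.2 and 45.6 TPM under combined deficiency. Only the iron-deficient samples stood clear of the others. GalDH was higher under iron deficiency than in controls by 0.41 (log2, standard error 0.16, adjusted p = 0.0405) and lower under combined deficiency than under iron deficiency by −0.42 (adjusted p = 0.0292). The first did not pass under the median of ratios (0.29, adjusted p = 0.134), with no filter (0.0661), or without control replicate 2 or 3 or iron-deficient replicate 1 or 3 (adjusted p = 0.121, 0.124, 0.0733 and 0.141). The latter became −0.18 without combined-deficiency replicate 2 (adjusted p = 0.293) and also missed the threshold without iron-deficient replicate 1 or 3 (0.0562 and 0.105) and in a fit of its 6 samples (0.0876). At 39 and 52 h GalDH passed in no comparison of media, and under combined deficiency it did not pass against controls at any time.

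GLDH, the mitochondrial enzyme that makes ascorbate from the lactone and also takes part in assembly of respiratory complex I, was with PMM lower under combined deficiency at 76 h, when VTC1, VTC2 and VTC4 were higher. At 39 h it held 23.0, 25.4 and 24.4 TPM in controls, 24.4, 22.6 and 23.9 TPM under iron deficiency, and 17.3, 21.9 and 22.6 TPM under combined deficiency. At 52 h the values were 21.9, 18.4 and 22.9 TPM, 23.3, 24.7 and 29.5 TPM, and 19.9, 15.8 and 15.7 TPM. At 76 h they were 23.2, 23.8 and 22.4 TPM, 22.8, 24.6 and 24.8 TPM, and 14.6, 16.7 and 15.3 TPM. At 76 h the combined-deficiency samples lay clearly below the 6 others, which overlapped.

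The log2 difference of GLDH under combined deficiency from controls was −0.24, −0.29 and −0.56 (standard error 0.10, adjusted p = 0.127, 0.0304 and 1.0e-04). From iron deficiency it was −0.20, −0.58 and −0.62 (adjusted p = 0.343, 1.9e-04 and 3.6e-05), and −0.09 at 39 h without combined-deficiency replicate 1 (adjusted p = 0.69). The value of 52 h against controls no longer passed without control replicate 1 or 3 or combined-deficiency replicate 2 or 3 (adjusted p = 0.0916, 0.131, 0.127 and 0.132) or in a fit of its 6 samples (0.101). At 39 h it was −0.12 without combined-deficiency replicate 1, and −0.29 with an adjusted p of 0.0266 under the median of ratios. Under iron deficiency GLDH was 0.29 higher at 52 h (adjusted p = 0.0395), which was 0.12 and did not pass under the median of ratios (adjusted p = 0.398), nor without control replicate 2 or iron-deficient replicate 2 or 3 (0.225, 0.0518 and 0.209), with no filter (0.0582) or in a fit of its 6 samples (0.113).

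Changes over time were tested within each medium. The age of the plants differs in both steps, and the time of day differs from 39 to 52 h. By their times after transfer, 52 and 76 h lie a full day apart. Age in both steps, and time of day in the first, cannot be told apart from time on the medium. In controls from 39 to 52 h PMI1 and PMM were lower, by −0.48 and −0.37 on the log2 scale (adjusted p = 0.0419 and 0.0228), 2 of 10 against 8.42% of all tested genes, with 0 higher (1 at an unadjusted p). PMI1 did not pass without any one of 5 of the 6 samples (adjusted p = 0.0859 to 0.176, all but control replicate 1 of 39 h), with no filter (0.0701) or under the median of ratios (−0.38, 0.0964), where the median of all genes shifted from −0.10 to −0.01, nor did PMM without any one of 5 (0.0522 to 0.0822, all but replicate 1 of 52 h), and none of the 10 passed from 52 to 76 h in limma or at an unadjusted p under 0.05. Under iron deficiency PMI2 rose by 0.89 (adjusted p = 1.3e-04) and PMM was lower by −0.32 (0.0362) from 39 to 52 h, 1 and 1 of 10 against 10.9% and 6.01%. PMM did not pass without replicate 2 or 3 of 39 h or 1 or 2 of 52 h (0.0701 to 0.169). From 52 to 76 h GalDH rose by 0.57 (adjusted p = 0.0208) and VTC4 fell by 0.37 (0.0227), against 5.29% and 6.05%. VTC4 did not pass without replicate 2 or 3 of 52 h or 1 or 2 of 76 h (0.0527 to 0.137), nor GalDH without replicate 2 or 3 of 52 h or 1 or 3 of 76 h (0.0558 to 0.151).

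Under combined deficiency from 39 to 52 h PMI2 and VTC2 rose by 0.49 and 0.33 (adjusted p = 0.0065 and 0.0376), 2 of 10 against 15.6% of all tested genes, and PMI1 and PMM were lower by −0.49 and −0.45 (0.0157 and 0.00197), against 19.7%. Without replicate 1 of combined deficiency at 39 h the rise of VTC2 was 0.15 and did not pass (adjusted p = 0.281), and VTC4 had −0.28, which passed (0.0309), as did GLDH with −0.37 (0.00801). The rise of VTC2 also did not pass without replicate 2 or 3 of 52 h (0.223 and 0.0665), that of PMI2 without replicate 3 of 52 h (0.0671), and PMI1 without replicate 2 or 3 of either time (0.0749 to 0.106). From 52 to 76 h VTC2 and PMI2 rose by 0.52 and 0.38 (adjusted p = 0.00298 and 0.0381), 2 of 10 against 9.48%, with 0 lower (1 at an unadjusted p). PMI2 did not pass without replicate 1 or 2 of 52 h or 2 or 3 of 76 h (0.0649 to 0.267). Over the same step 2 of the 3 tested root markers were also called higher, with group means of 0.856 and 3.89 TPM for CASP1 and 0.790 and 4.34 TPM for PRX57, and their part in these rises was not tested. VTC1 passed in neither step.

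Whether a difference between media changed between 39 and 76 h was tested directly. For combined deficiency against controls it grew for VTC2 by 0.94 (log2, standard error 0.17, adjusted p = 2.6e-04) and for VTC5 by 0.44 (0.00275), 2 of 10 against 15.1% of all tested genes, and 0 became lower (2 at an unadjusted p). For combined deficiency against iron deficiency it grew for VTC2 by 1.26 (adjusted p = 1.2e-05) and for VTC4 by 0.64 (0.00207), against 9.64%, and that of GLDH went down by −0.41 (0.0415), against 17.3%. For iron deficiency against controls none of the 10 passed in limma, with 1 higher and 1 lower at an unadjusted p under 0.05. VTC4 had −0.45 there (adjusted p = 0.0607). It passed under the median of ratios (−0.53, 0.0186), with a replicate block (0.0357) and without iron-deficient replicate 1 of 39 h (−0.57, 0.0116). VTC5 had 0.31 (adjusted p = 0.0766) and passed only without iron-deficient replicate 3 of 76 h (0.37, 0.036). The change of the VTC1 difference was 0.30 against iron deficiency and did not pass (adjusted p = 0.0889), except without combined-deficiency replicate 2 of 39 h or of 76 h (0.0457 and 0.0464). Without replicate 1 of combined deficiency at 39 h the growth of VTC2 was 0.77 and 1.08 in the 2 tests and that of VTC4 0.52, GLDH had −0.53 (adjusted p = 0.00716) and PMM −0.48 (0.00521) against iron deficiency. Against controls PMM and GLDH then had −0.48 and −0.44 and also passed as lower (0.00501 and 0.0237), as they did under the median of ratios with all samples (both −0.40, adjusted p = 0.012 and 0.0209).

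Across the 9 group means, which share libraries and medium effects, VTC1 and VTC4 had a Pearson correlation of 0.98 on the log2 scale, VTC2 had 0.85 with VTC1 and 0.895 with VTC4, and GLDH had −0.90 with VTC2. Among 3999 genes of at least 5 TPM that varied over the groups, the pattern of VTC4 was most like those of AT5G08570 (a pyruvate kinase family gene, 0.995), PFA-DSP2 (0.995), SULTR3;4 (0.991), AT1G03250 (0.989) and MGD2 (a galactolipid synthase gene, 0.989). VTC2 was most like CPL3 (0.987), ROC1 (0.986), AT5G56840 (0.982), AT5G44565 (0.977) and MYC4 (0.977). GLDH was most like AT5G25757 (0.989), AT3G11964 (0.985), CP33 (0.982), EMB3144 (0.981) and EIF2 GAMMA (0.980). All of these are descriptions over 9 points.

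The steps next to the pathway moved less than 2-fold. Of 12 tested genes of neighbouring steps, 0, 2 and 3 were higher and 0, 0 and 2 lower under iron deficiency, and 1, 3 and 3 were higher and 1, 2 and 3 lower under combined deficiency, at 39, 52 and 76 h against controls. Of all tested genes, 3.43%, 28.5% and 29.5% were higher and 2.45%, 3.57% and 9.43% lower under iron deficiency, and 10.8%, 28.8% and 33.7% higher and 5.18%, 11.6% and 21.9% lower under combined deficiency. None of the 12 was called with a 2-fold change, and their median log2 change at 76 h was −0.05 and −0.07, against 0.11 and 0.10 over all genes. Under combined deficiency against iron deficiency, 0, 1 and 3 of the 12 were higher and 0, 1 and 6 lower at the 3 times. The shares of all tested genes were 2.87%, 9.77% and 22.5% higher and 2.07%, 17.4% and 28.8% lower. The median log2 change of the 12 in that comparison at 76 h was −0.22, against −0.03 over all genes. KJC2, whose product is related to VTC1 and stimulates it, was at 3.92 ± 0.148 TPM in controls and 6.51 ± 0.797 TPM under combined deficiency at 76 h (log2 0.66, adjusted p = 4.8e-05). IMPL2, an inositol monophosphatase-like relative of VTC4 that acts in histidine synthesis, fell by 0.42 there (adjusted p = 1.8e-04). The VTC1 homolog AT3G55590 was listed at 0 in all samples.

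Among 6 tested regulators of the pathway, 1 was higher under iron deficiency at 76 h and 1 was lower under combined deficiency at 52 and at 76 h against controls, none at least 2-fold, where 29.5% of all tested genes were higher and 11.6% and 21.9% lower. The higher one was PLP, which encodes a PAS/LOV protein that binds VTC2 and VTC5, with 23.8 ± 2.60 TPM in controls and 42.4 ± 5.18 TPM under iron deficiency (log2 0.82, adjusted p = 0.00735). CSN5A, a subunit of the COP9 signalosome, was the lower one, with −0.27 and −0.47 (adjusted p = 0.0181 and 9.7e-05). Under combined deficiency against iron deficiency at 76 h, 1 of the 6 was higher and 1 lower, none at least 2-fold. The shares of all tested genes were 22.5% higher and 28.8% lower. The median log2 change of the 6 was −0.31, against −0.03 over all genes. CML10, whose calmodulin-like product binds PMM, was the higher one in that comparison, by 0.81 (adjusted p = 0.00568).

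Of 9 tested genes of ascorbate recycling and transport, 0, 0 and 0 were higher and 0, 0 and 2 lower under iron deficiency at 39, 52 and 76 h against controls. The shares of all tested genes were 3.43%, 28.5% and 29.5% higher and 2.45%, 3.57% and 9.43% lower. Under combined deficiency 1, 1 and 2 of the 9 were higher and 1, 1 and 2 lower. The shares of all tested genes were then 10.8%, 28.8% and 33.7% higher and 5.18%, 11.6% and 21.9% lower. The median log2 change of the 9 genes under combined deficiency at 76 h was −0.04, against 0.10 over all genes. DHAR1, a dehydroascorbate reductase gene, held 276, 262 and 270.3 TPM in controls, 204, 251 and 273 TPM under iron deficiency, and 504, 585 and 699.6 TPM under combined deficiency at 76 h. MDAR6, which encodes the monodehydroascorbate reductase of chloroplasts and mitochondria, held 102, 108 and 102 TPM, 82.2, 95.4 and 94.2 TPM, and 43.8, 38.2 and 44.3 TPM. The combined-deficiency samples thus lay above all others for DHAR1 and below all others for MDAR6. Under combined deficiency against controls, DHAR1 rose 1.55-, 1.996- and 2.19-fold (adjusted p = 0.00149, 2.7e-06 and 1.8e-07) and MDAR6 was 1.49-, 1.63- and 2.46-fold lower (adjusted p = 3.1e-05, 7.2e-07 and 2.5e-11).

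Other routes to ascorbate have been proposed, among them one from myo-inositol, of which 3 of the 7 listed genes were tested. MIOX2, a myo-inositol oxygenase gene, held 25.9, 12.2 and 30.2 TPM in controls, 159, 139.7 and 109.6 TPM under iron deficiency, and 21.4, 13.8 and 21.5 TPM under combined deficiency at 76 h. MIOX1 held 4.12, 3.83 and 4.54 TPM, 13.6, 10.3 and 12.0 TPM, and 18.0, 15.5 and 15.2 TPM. MIOX2 was thus high only under iron deficiency among the media of that time, and MIOX1 in both media without iron. Of the 3, 2 were higher and 0 lower under iron deficiency at 76 h, against 29.5% and 9.43% of all tested genes. Under combined deficiency 1 was higher and 1 lower, against 33.7% and 21.9%. All of these changed at least 2-fold. Of 18910 genes, 836 did so as higher under iron deficiency, and 1199 as higher and 491 as lower under combined deficiency. Against controls, MIOX2 rose by 2.63 on the log2 scale under iron deficiency (adjusted p = 1.1e-06), and MIOX1 rose by 1.41 under iron deficiency and 1.84 under combined deficiency (adjusted p = 6.3e-06 and 6.9e-08). MIOX4, at 1.04 to 1.23 TPM in controls, fell under combined deficiency to 0.164 to 0.386 TPM (−1.09, adjusted p = 4.0e-04).

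**Figure D4:**
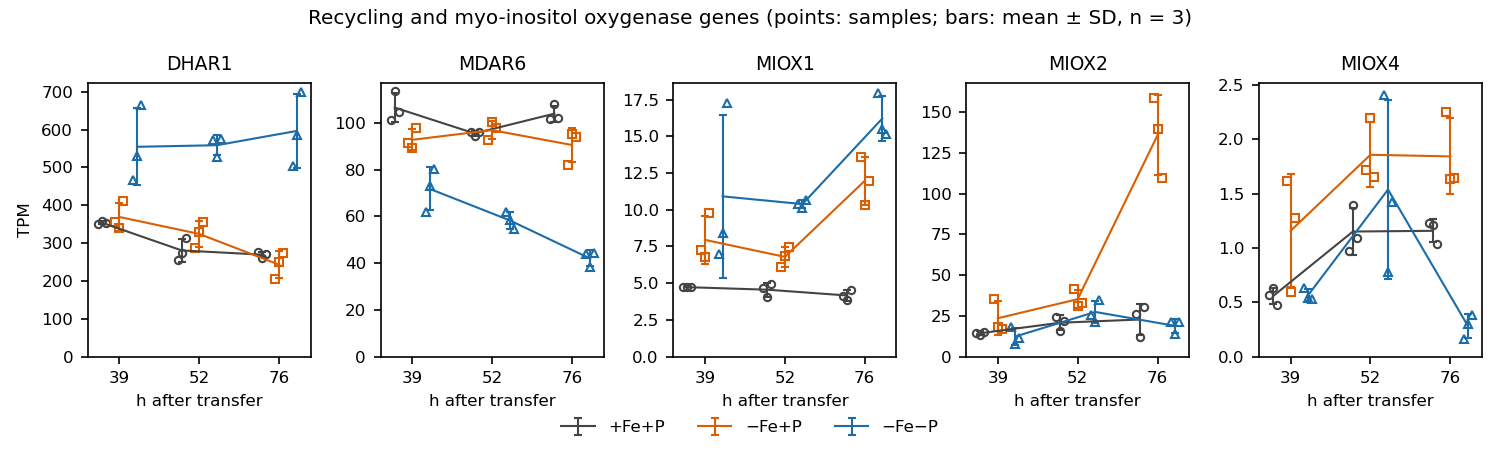
TPM (y axis, starting at 0) of DHAR1, MDAR6, MIOX1, MIOX2 and MIOX4 in each sample against time after transfer (3 times drawn evenly spaced), with bars for the mean ± SD of 3 samples in the media +Fe+P (grey circles), −Fe+P (orange squares), −Fe−P (blue triangles). At 76 h DHAR1 is highest and MDAR6 lowest in −Fe−P, and MIOX2 is highest in −Fe+P with 109.6 to 159 TPM.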

How the data were processed

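Messenger RNA of whole shoots was sequenced in 27 samples, which were grouped by their labels. The authors aligned reads with HISAT2 to TAIR10, deposited TPM for each gene and used DESeq2 for their own tests. Versions, read counting and strand are not given in the sources used here. From the steps between low TPM values, 25.6 to 56.5 megareads a sample (median 44.2) were inferred, and low genes carry more counting error.

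A fit of log2(TPM + 0.5) was made with limma 3.58.1 (R 4.3.3) for the 18910 genes whose mean reached 1 TPM. It had a mean for each medium and time, used all 27 samples, eBayes with a trend and no replicate block. P-values were adjusted within each comparison and measure only the spread between these samples. Between groups, the deviations of same-numbered samples from their group means correlated at −0.42 to 0.36 (median −0.00), so the numbers were not taken as pairs. Other settings were pseudocounts of 0.1 and 1, dropping the filter, a minimum of 5 TPM, median of ratios scaling, nuclear genes alone, fits of only the 6 samples compared, eBayes untrended or robust, a replicate block, a 2-fold minimum, and leaving out each sample. The fit was tested on simulated data.

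The members and gene lists were chosen with earlier results of these data known. All 10 members are named, up to 3 genes of each other list that were called with a 2-fold change, and the 5 genes most similar in group means to VTC4, VTC2 and GLDH. KJC2, IMPL2, AT3G55590, PLP, CSN5A and CML10 were chosen after their values were seen. Identifiers matched RefSeq for 32835 genes, and coding identity was computed with Biopython 1.88.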

Additional observations from a re-analysis of the deposited data

Results flagged for a closer look

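A test of the difference between times, applied to each difference between media, picked out 5 results in which the response at 76 h was not that at 39 h. For −Fe−P against +Fe+P these were VTC2, whose log2 change grew by 0.94 (0.18 at 39 h and 1.13 at 76 h), and VTC5, which grew by 0.44 (0.04 and 0.48). For −Fe−P against −Fe+P they were VTC2 with 1.26 (0.47 and 1.73), VTC4 with 0.64 (a fold of 2.58 and 4.01) and GLDH, whose difference went down by −0.41 (−0.20 and −0.62). The GLDH result missed the threshold with no filter (adjusted p = 0.0598) and without any one of 8 of the 12 samples it uses (0.0623 to 0.103). The other 4 passed under all alternatives run, with or without any one sample.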

How the results depend on the processing

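Counts of the 10 genes that passed are given as higher or lower, against the counts in the report, and no change of direction occurred for a passing gene. With a 2-fold minimum, iron deficiency had 0 higher at 39 h, 1 at 52 h and 0 at 76 h (0 lower at 76 h). Combined deficiency had 2 higher and 0 lower at 52 h and 3 higher and 0 lower at 76 h against controls, and 0 lower at 52 and 76 h against iron deficiency. Scaling by the median of ratios gave 1 lower at 39 h in either deficiency, 1 higher and 2 lower at 52 h and 1 higher at 76 h under iron deficiency, and 2 lower at 52 h under combined deficiency. It gave 1 lower in controls and 2 lower under iron deficiency from 39 to 52 h, 1 lower under combined deficiency from 52 to 76 h, and 1, 2 and 2 lower for the 3 differences between 39 and 76 h. Without a filter there was 1 higher under iron deficiency at 52 h, 1 lower (controls) and 0 lower (iron deficiency) from 39 to 52 h, 1 higher in each step of combined deficiency, and 0 lower for the last difference. In fits of 6 samples there was 1 higher under iron deficiency and 0 lower under combined deficiency at 52 h. The replicate block made VTC4 pass for the change of its iron response between 39 and 76 h (−0.45, adjusted p = 0.0357), so 1 was lower, and from 52 to 76 h under combined deficiency (0.26, 0.0422), and it changed no other call. Leaving out 1 sample gave 1 to 2 higher at 52 h and 2 to 4 at 76 h under iron deficiency, and 0 to 1 lower (against controls) and 1 to 2 lower (against iron deficiency) at 52 h under combined deficiency. Over time it gave 0 to 1 lower in controls, 0 to 1 lower and then 0 to 1 higher and 0 to 1 lower under iron deficiency, and 0 to 2 higher, 1 to 4 lower and then 1 to 2 higher under combined deficiency. For the differences between times it gave 0 to 1 higher and 0 to 1 lower, 0 to 2 lower and 0 to 2 lower. The cause of these shifts was not tested. PMI2, with 124 to 326 reads a sample, is limited most by depth.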
